A study of Mus musculus with 34 samples.

Results

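Liver RNA of 34 mouse pups was measured on arrays at PND 15, and 10 genes of the Kruppel-like factor family were followed, namely Klf9, Klf2, Klf3, Klf4, Klf6, Klf10, Klf11, Klf12, Klf13 and Klf15. Their probes were found by matching the RefSeq accession of each non-control probe to a gene symbol, which gave 17 of the 41174 probes on the array. Klf4, Klf10 and Klf13 had 1 probe each and the other 7 genes had 2, and every probe was analysed separately. The C57BL/6 pups formed 4 treatments, each with males and females. Control pups (4 males, 4 females) received saline. Hypo pups (4 males, 5 females) were nursed by dams that drank methimazole (0.05%) and perchlorate (1%) for 3 days, which block hormone synthesis and iodide uptake in the thyroid, and received saline. Hyper pups (5 males, 5 females) were injected with 50 µg of T4 and 5 µg of T3 per 100 g body weight. Hypo+ pups (4 males, 3 females) came from dams on the same water as the hypo group and were injected with 20 µg of T4 and 2 µg of T3 per 100 g. All injections were intraperitoneal, 4 h before tissue collection. The hypo+ pups on the arrays were those of the replacement group whose serum T4 lay near or slightly above control, so that this group was selected by its hormone level.

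Kruppel-like factors are transcription factors with zinc fingers that bind GC-rich and CACCC sequences, and members of the family either activate or repress their targets depending on the cofactors they recruit. Klf9 is a known direct target of the thyroid hormone receptor, best described in brain, and is also induced by glucocorticoids. Klf13 is a close relative of Klf9 and shares its Sin3 corepressor binding. In liver, family members are known for roles in gluconeogenesis, amino acid breakdown and lipid metabolism.

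Klf13 was the member called in these data, lower in hypo pups than in control pups and higher in hypo+ pups than in hypo pups. Klf9 is the member with the known link to the hormone. The 250 bases before the start of each are shown for that reason, 5′ to 3′ on the strand of the gene, from RefSeq on GRCm38.p6. They lie at chr7:63938916-63939165 on the minus strand for Klf13 and at chr19:23140976-23141225 on the plus strand for Klf9. Capitals mark GGGCGG (a GC box) and CACCC, the sequences that the family itself binds, on either strand.
Klf13: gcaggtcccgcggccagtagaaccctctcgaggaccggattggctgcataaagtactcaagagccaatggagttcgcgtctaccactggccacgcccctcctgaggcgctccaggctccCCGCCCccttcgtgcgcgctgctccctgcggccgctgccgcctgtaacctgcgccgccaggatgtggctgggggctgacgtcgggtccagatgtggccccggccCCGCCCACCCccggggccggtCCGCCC
Klf9: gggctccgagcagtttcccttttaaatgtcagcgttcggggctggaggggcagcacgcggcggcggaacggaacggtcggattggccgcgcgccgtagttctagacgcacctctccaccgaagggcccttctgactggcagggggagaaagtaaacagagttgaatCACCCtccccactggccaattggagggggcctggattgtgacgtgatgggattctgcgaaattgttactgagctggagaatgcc
The Klf13 window held 3 matches to GGGCGG and 1 to CACCC, which overlapped 1 of them. The Klf9 window held 1 match to CACCC and none to GGGCGG. Windows of this kind were at hand for 9 of the 10 genes, all but Klf10. For Klf12 and Klf15 the window at hand lay inside the outer bounds of the gene and not before its outermost start. Of the 9 windows, 7 held GGGCGG and 6 held CACCC, compared with 32.7% and 52% of 32851 such windows. The 9 windows had a GC content of 48.0% (Klf12) to 78.4% (Klf3). The comparison with all windows was not matched for GC content, so that no enrichment can be read from it. AGGTCA, the half-site of a thyroid hormone response element, was in none of the 9 on either strand and in 14% of all windows, and nothing follows from this for sequence outside the window. For Klf9, the paper lists a previously characterized response element that lies further upstream than the window shown.

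All 17 probes gave a Cy5 signal above the negative controls on each of the 34 arrays, and none was saturated. Values are log2 ratios of liver (Cy5) to a universal mouse reference RNA (Cy3), normalized within each array. A value of 0 is thus the centre of probes of similar signal on the array, and not a measured equality with the reference. Over all probes, the median Cy5 signal of an array was 146 to 199. No probe of the family was missing on any array. In bulk liver RNA, fewer cells of a type and less RNA per cell cannot be told apart. The summed signal of hepatocyte markers lay between 19.3 and 19.7 (log2) on all arrays. No probe for markers of hepatocytes, endothelium, erythroid cells, Kupffer cells, stellate cells or cholangiocytes passed the test in the 4 comparisons, in either sex or both. Markers of pancreatic acinar cells stood apart in 3 control pups (males 522 and 832 and female 831), whose median log2 ratio over 8 markers was 3.00 to 4.29, compared with at most 1.58 in every other pup. Of these markers, Amy2a5 was called lower in hypo than in control pups (log2 fold-change -0.67, adjusted p = 0.0446 by limma). Klf13 was highest among control males in male 522 and lowest in male 832, and the part of these markers in the results was not tested beyond leaving the 3 pups out.

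Klf13 was lower in all 9 hypo pups than in any of the 25 other pups. By their animal numbers some of these pups were littermates, so that they are not all independent. In males, the log2 ratio of Klf13 was -0.01, 0.08, 0.33 and 0.84 in the control pups and -0.33, -0.31, -0.31 and -0.10 in the hypo pups. In females, it was 0.07, 0.24, 0.26 and 0.33 in the control pups and -0.44, -0.35, -0.30, -0.14 and -0.14 in the hypo pups. The groups did not overlap in either sex, which held in the lower direction for 0.274% of all probes. Over the whole array, hypo pups were below all other pups for 49 probes (0.119%), and Klf13 was the only family member among them.

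With both sexes in 1 fit, Klf13 was 1.45-fold lower in hypo than in control pups (log2 fold-change -0.53, SE 0.10, adjusted p = 0.00187 by limma). This was the only probe of the 17 called in that comparison, against 1.09% of all probes. In females alone the log2 fold-change was -0.50 (SE 0.07, adjusted p = 0.00923), where 0.155% of all probes were called. In males alone it was -0.57 (SE 0.17), a similar size that did not pass (unadjusted p = 0.00449, adjusted p = 0.521), and 0.0971% of all probes did. The difference between the sexes was 0.07 (95% interval -0.32 to 0.47, adjusted p = 1.0). The value in both sexes was -0.47 (adjusted p = 0.011) without the 3 control pups with acinar markers and -0.52 (adjusted p = 0.545) with median centring in place of loess, where the call was lost. It was also lost with the Cy5 channel alone (-0.42, adjusted p = 0.141). The female call was lost with median centring (-0.38, adjusted p = 1.0), with the Cy5 channel alone (-0.43, adjusted p = 0.701), with only the compared groups in the fit (-0.50, adjusted p = 0.0667) and without control female 523 (-0.46, adjusted p = 0.0501).

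**Figure D1:**
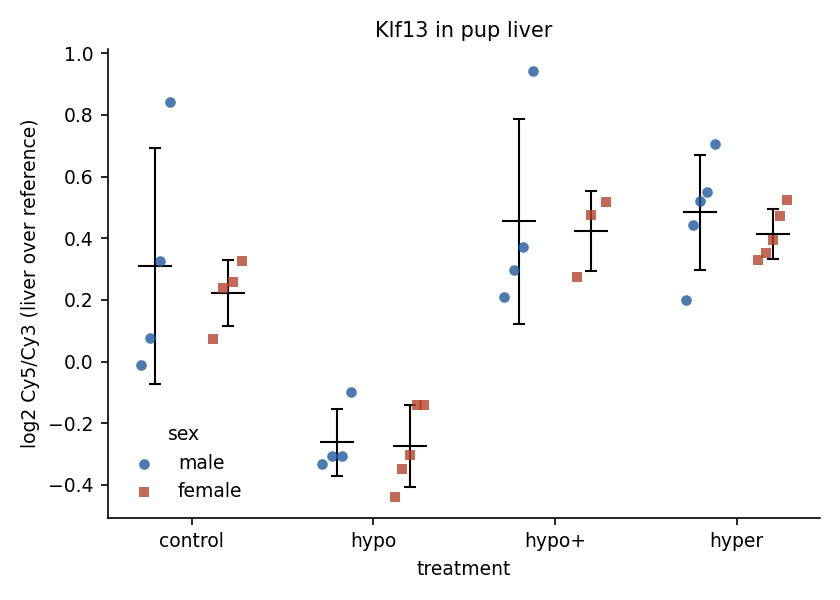
Klf13 in pup liver, as log2 Cy5/Cy3 on the y axis by treatment on the x axis, with males as circles and females as squares. Each point is 1 pup and the bars show the mean and SD of each group. The hypo pups sit between -0.44 and -0.10 and every other pup lies at -0.01 or above.

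Hormone given to pups on the antithyroid water went with a higher Klf13. The hypo+ males had values of 0.21, 0.30, 0.37 and 0.94, and the hypo+ females had 0.27, 0.48 and 0.52. All were above every hypo pup, and groups that did not overlap in either sex, in this direction, were found for 0.627% of all probes. Klf13 was 1.63-fold higher in hypo+ than in hypo pups (log2 fold-change 0.71, SE 0.10, adjusted p = 3.37e-05), and it was the only called probe of the family, against 3.07% of all probes. The value was 0.70 in females (SE 0.08, adjusted p = 0.000389, background 0.556%), and this call was lost with median centring (0.55, adjusted p = 0.973) and with the Cy5 channel alone (0.63, adjusted p = 0.132). In males it was 0.72 (SE 0.17, adjusted p = 0.11, background 0.369%), and it passed there without control male 522 (adjusted p = 0.0326) and without the 3 pups with acinar markers (adjusted p = 0.0421). A control pup enters this comparison only through the shared estimate of spread. With median centring the value in both sexes was 0.57 (adjusted p = 0.232). The sexes differed by -0.02 (95% interval -0.43 to 0.39).

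Neither hormone group was called against control for Klf13. The 3 comparisons with control share the same control pups. In hyper males the values were 0.20, 0.44, 0.52, 0.55 and 0.71, and in hyper females 0.33, 0.35, 0.39, 0.47 and 0.52. The hyper females were all above the control females by a small margin, with 0.329 as the lowest hyper and 0.326 as the highest control value, which 1.3% of all probes matched in having higher groups without overlap. The males overlapped. For hyper vs control the log2 fold-change was 0.18 (95% interval -0.01 to 0.37, adjusted p = 0.757), and no probe of the family was called, against 0.848% of all (0.0753% in males and 0.158% in females). For hypo+ vs control it was 0.17 (95% interval -0.04 to 0.38, adjusted p = 0.597), with 0.09 without hypo+ male 761, 0.26 without control male 522 and 0.05 with median centring, and again no member was called, against 0.746% of all (0.0267% in males and 0.0219% in females). The group means were -0.27 ± 0.11 (SD, n = 9) in hypo, 0.27 ± 0.26 (SD, n = 8) in control, 0.44 ± 0.25 (SD, n = 7) in hypo+ and 0.45 ± 0.14 (SD, n = 10) in hyper pups. Hyper and hypo+ pups had nearly the same mean and were not compared by a test.

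Arrays of 1 slide share a hybridization, so that pups were also compared within slides. Hypo and control pups of the same sex shared a slide in 7 cases, and Klf13 was lower in the hypo pups in 7 of 7, by -1.15 to -0.09. Hypo+ and hypo pups shared a slide in 4 cases, and Klf13 was higher in hypo+ in 4 of 4, by 0.41 to 0.87. Both counts follow from the lack of overlap between hypo and all other pups, so that they are no separate check. Against control on the same slide, Klf13 was higher in hyper pups in 6 of 8 cases (-0.40 to 0.56) and in hypo+ pups in 4 of 5 (-0.63 to 0.87). With the slide as a fixed block the log2 fold-changes in both sexes were -0.53 (adjusted p = 0.0184) for hypo vs control and 0.70 (adjusted p = 0.00835) for hypo+ vs hypo.

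Klf9 did not pass the test in any comparison, although both of its probes had their lowest mean in hypo pups. For the brighter probe (A_52_P675996), control males had log2 ratios of 1.19, 1.53, 1.86 and 2.43 and hypo males had 0.86, 1.22, 1.45 and 1.59. Control females had 1.43, 1.44, 1.68 and 1.94 and hypo females had 1.06, 1.097, 1.16, 1.21 and 1.62. The groups overlapped in both sexes.

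For the dimmer probe (A_51_P412200), control males had 0.61, 1.03, 1.12 and 2.40 and hypo males had 0.14, 0.40, 0.74 and 1.16. Control females had 0.89, 1.01, 1.26 and 1.77 and hypo females had 0.61, 0.62, 0.65, 0.67 and 1.09. A single pup decided the overlap in females, since 4 of the 5 hypo females were below all control females and hypo female 575 was not.

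In both sexes together, hypo vs control gave log2 fold-changes of -0.43 (SE 0.15, adjusted p = 0.216) and -0.59 (SE 0.18, adjusted p = 0.145) for the brighter and dimmer probe. Hypo+ vs hypo gave 0.40 (SE 0.15, adjusted p = 0.191) and 0.65 (SE 0.19, adjusted p = 0.0554). The SE of Klf13 was 0.10 in both comparisons. Control male 522 was the highest pup of all 34 for both probes. Without it, the dimmer probe gave -0.41 in hypo vs control, and hypo+ vs hypo passed with 0.65 (adjusted p = 0.0112). Without the 3 control pups with acinar markers, the dimmer probe passed in hypo+ vs hypo too (0.65, adjusted p = 0.00997 by limma). Its hypo vs control value remained at -0.54 (adjusted p = 0.185). The brighter probe passed in hypo+ vs hypo in 0 of 13 alternatives and in 0 of 34 fits with 1 array left out. Control pups enter hypo+ vs hypo only through the shared estimate of spread.

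**Figure D2:**
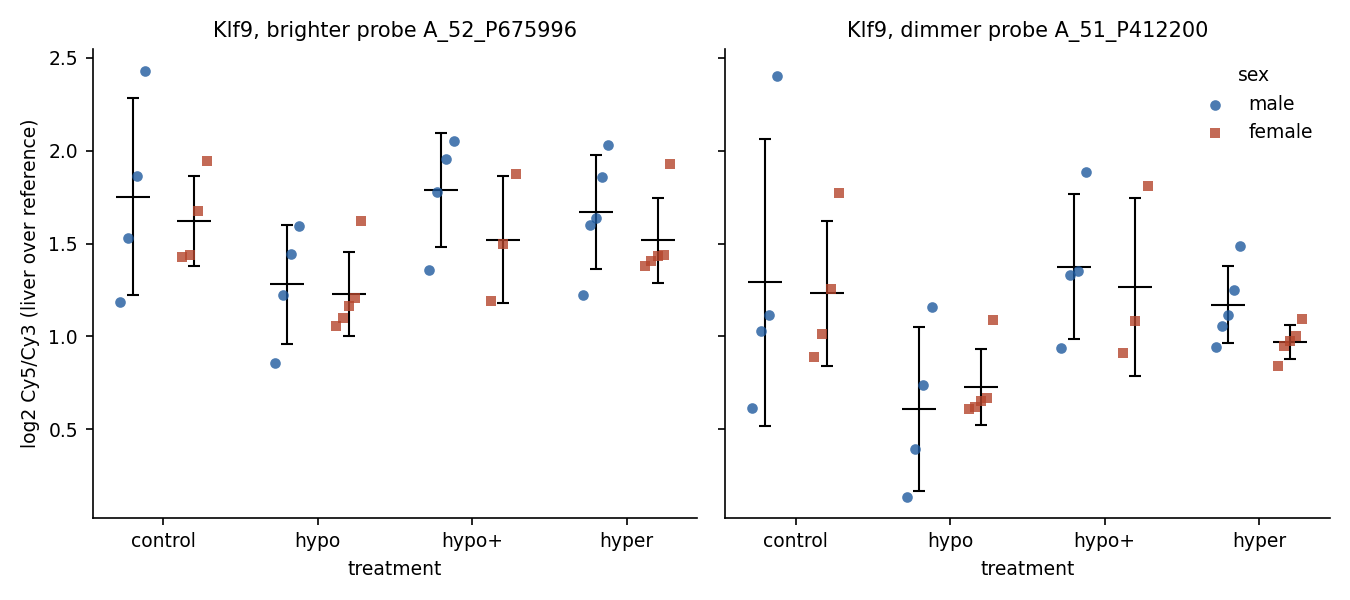
Klf9 in pup liver for the brighter probe (left) and the dimmer probe (right), as log2 Cy5/Cy3 on the y axis by treatment on the x axis. Each point is 1 pup, males are circles and females squares, and bars show the mean and SD. The hypo means are the lowest for both probes, and single pups of the hypo groups reach into the range of the control groups.

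For Klf9, neither hormone-treated group passed the test against control. In hyper pups the brighter probe ranged from 1.22 to 2.03 with a median of 1.52 and the dimmer probe from 0.84 to 1.48 with a median of 1.03. The log2 fold-changes of hyper vs control were -0.09 (95% interval -0.39 to 0.20) and -0.19 (95% interval -0.55 to 0.17). Without control male 522 they were 0.02 and -0.01. Hypo+ males had 1.36, 1.78, 1.96 and 2.05 for the brighter probe, and hypo+ females had 1.19, 1.498 and 1.87. Hypo+ vs control gave -0.03 (95% interval -0.35 to 0.29) and 0.06 (95% interval -0.34 to 0.46). In order of the mean, the brighter probe stood at 1.25 ± 0.25 (SD, n = 9) in hypo, 1.59 ± 0.27 (SD, n = 10) in hyper, 1.67 ± 0.33 (SD, n = 7) in hypo+ and 1.69 ± 0.39 (SD, n = 8) in control pups, control male 522 included. The ranges of neighbouring groups overlapped. On the slides that held hypo and control pups of 1 sex, both Klf9 probes were lower in the hypo pups in 6 of 7 cases.

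Klf10 and Klf11 are both known as genes induced early by TGF-beta, and both recruit Sin3. For Klf10, control pups had log2 ratios of -1.51, -0.73, -0.70 and -0.36 in males and -0.98, -0.94, -0.80 and -0.42 in females. Hypo pups had -1.42, -1.40, -1.30 and -1.05 in males and -1.63, -1.45, -1.31, -1.12 and -0.94 in females. Control male 832 was as low as the hypo pups, and all other control males were above all hypo males. Hypo vs control gave -0.49 for Klf10 (SE 0.15, adjusted p = 0.163), with -0.47 in males and -0.50 in females. Klf10 passed with the slide as a random block (-0.53, adjusted p = 0.0469), with the scan batch as a block (-0.58, adjusted p = 0.0383) and without control male 832 (-0.60, adjusted p = 0.0322). It did not pass under any other alternative, the slide as a fixed block and the inferred litter as a random block included. Nor did it pass with any other single array left out. Hypo+ vs hypo gave 0.26 (95% interval -0.07 to 0.58), and both hormone groups had lower means than control, by -0.21 in hyper and -0.23 in hypo+.

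The 2 Klf11 probes gave -0.01 and 0.00 in hypo vs control (95% intervals -0.17 to 0.16 and -0.17 to 0.18). In hyper pups the dimmer probe (A_51_P205820) gave -0.22 against control (SE 0.08, unadjusted p = 0.0118, adjusted p = 0.379). All hyper females, from -0.63 to -0.39, were below all control females, from -0.38 to 0.17, and 1.25% of all probes had lower hyper females without overlap. The brighter probe (A_52_P474002) gave -0.13 (95% interval -0.29 to 0.04). The dimmer probe had a median Cy5 signal of 136.5.

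Klf3 and Klf12 are repressors that bind the corepressor CtBP. The Klf3 probes gave 0.05 and 0.09 in hypo vs control and -0.11 and -0.15 in hyper vs control, none called. Hyper females, from -0.12 to 0.14, lay below all control females, from 0.15 to 0.27, for A_52_P462392, which 1.25% of all probes matched, and overlapped with them for the other probe. In males, hypo+ pups had 0.73, 0.82, 0.87 and 1.102 for A_51_P492640, above all control males (0.46, 0.48, 0.68 and 0.70), with a log2 fold-change of 0.30 (SE 0.12, adjusted p = 0.536). In females the same difference was -0.00, with a sex difference of -0.30 (unadjusted p = 0.097). They were also above all hypo males (0.21, adjusted p = 0.622). Higher hypo+ males without overlap were found for 2.02% of all probes against control and for 2.2% against hypo. For Klf12, the brighter probe (A_52_P617636) gave log2 fold-changes of -0.14 to -0.01 across the comparisons of both sexes and the dimmer (A_52_P215152) of -0.10 to 0.01, none called. The dimmer probe was well above background in the reference channel on only 9 arrays.

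Klf2 is an endothelial factor induced by blood flow, Klf4 is a factor of epithelial differentiation and pluripotency, and Klf6 is a broadly expressed factor linked to injury. The 2 Klf2 probes did not move together, and whether either measures Klf2 alone was not tested. The brighter (A_52_P442031) had a median Cy5 signal of 183531 and the other (A_51_P144264) of 2367, and in hypo vs control they gave 0.17 (95% interval -0.19 to 0.53) and -0.20 (95% interval -0.52 to 0.13). Markers of liver endothelium did not pass in any comparison. Klf4 had a log2 ratio of -2.85 to -1.45 over the pups. Hypo+ male 546 was the highest at -1.45, and the other 3 hypo+ males ranged from -2.40 to -2.04. In hypo+ vs hypo, Klf4 gave 0.41 in males and -0.22 in females, a sex difference of -0.63 (SE 0.24, unadjusted p = 0.0146, adjusted p = 1.0). In the 4 tests of a difference between the sexes, 0% of all probes passed by limma, and those with an unadjusted p under 0.05 made up 2.11% for hypo+ vs hypo, 1.04% for hypo vs control, 1.26% for hyper vs control and 1.33% for hypo+ vs control. The Klf6 probes stayed within -1.35 and -0.75 in all pups, and the dimmer (A_51_P503162) gave 0.17 in hypo+ vs hypo (SE 0.07, adjusted p = 0.26).

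Klf15 controls amino acid breakdown and gluconeogenesis in liver and follows glucocorticoids and fasting. Its log2 ratio was 4.93 to 6.06 over the pups for the brighter probe (A_52_P64383) and 2.21 to 3.14 for the other (A_51_P299339). In hyper females the brighter probe was 4.93, 4.95, 5.15, 5.30 and 5.41, against 5.33, 5.34, 5.56 and 5.84 in control females, and the groups overlapped. The female log2 fold-change was -0.37 (SE 0.17, unadjusted p = 0.0424) and the male one 0.03, with a sex difference of -0.40 (unadjusted p = 0.108), and neither passed after adjustment. In hypo vs control and hypo+ vs hypo the brighter probe gave 0.09 (95% interval -0.16 to 0.35) and -0.00 (95% interval -0.27 to 0.26).

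**Figure D3:**
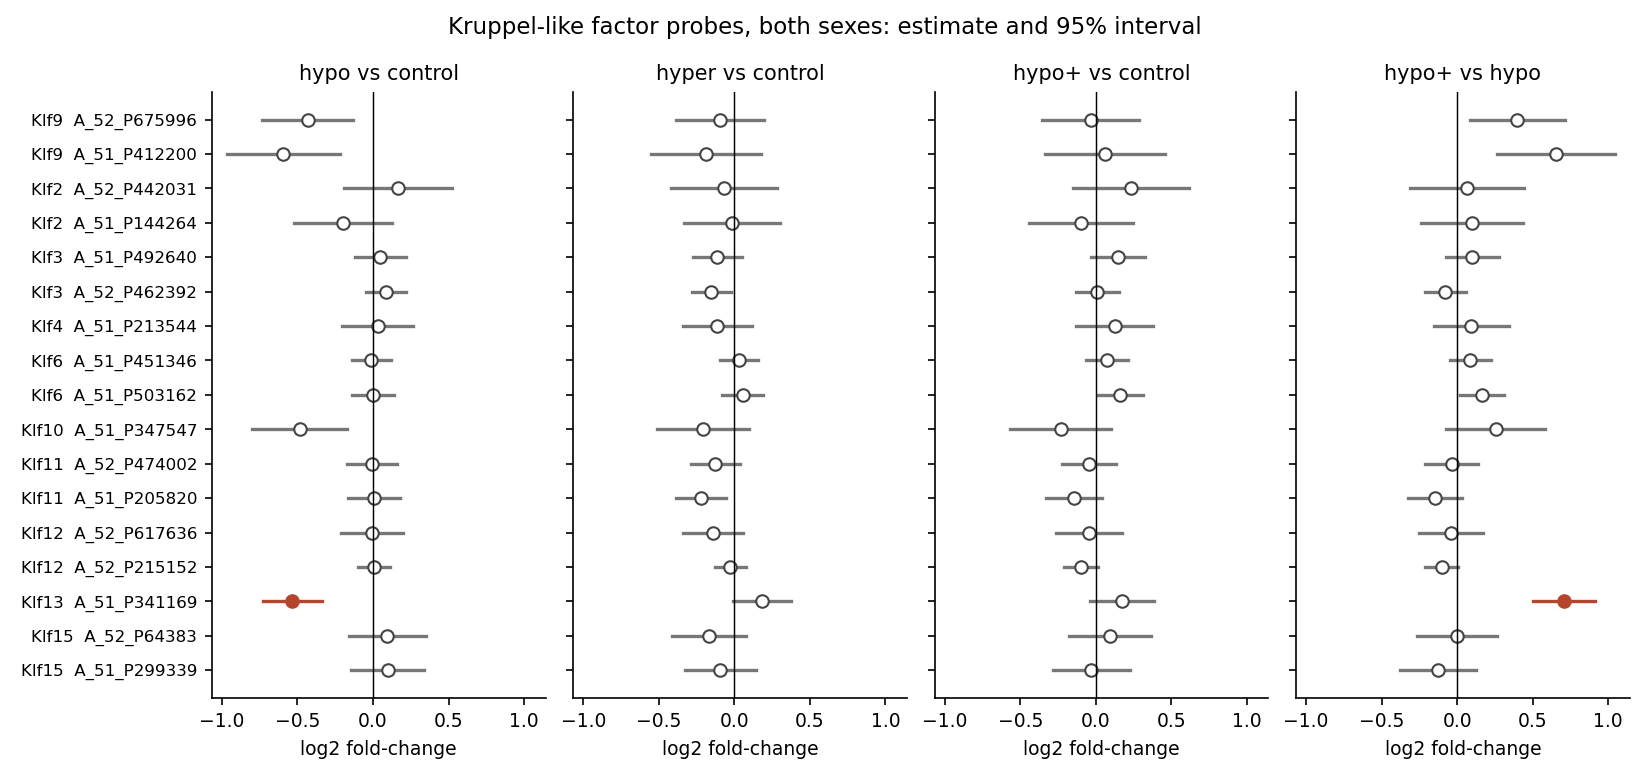
Log2 fold-change (x axis) with its 95% interval for the 17 probes (y axis) in the 4 comparisons, both sexes in 1 fit of 34 arrays. Filled red points are called after adjustment over all 41174 probes, which holds for Klf13 in hypo vs control (-0.53) and in hypo+ vs hypo (0.71).

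Counted over the family, 4 of 17 probes had an unadjusted p under 0.05 in hypo vs control and all 4 were lower (Klf13, Klf10 and both of Klf9), compared with 3.87% of all probes that were lower. In hypo+ vs hypo there were 4, all higher (Klf13, both of Klf9 and 1 of Klf6), against 5.77% that were higher. In hyper vs control there were 2, both lower (1 each of Klf3 and Klf11), against 3.22%, and in hypo+ vs control 1, higher (Klf6), against 4.91%. The median log2 fold-change of the 17 probes was -0.00 in hypo vs control, -0.11 in hyper vs control, 0.01 in hypo+ vs control and 0.09 in hypo+ vs hypo, where the median of all probes was within 0.01 of 0 each time. In hyper vs control 14 of the 17 probes were below 0, and the 3 above were Klf13 and both of Klf6. The share of all probes below 0 was not counted. The 17 probes share the same control pups, and male 522 was the highest control male for 11 of them. The part of this pup in the count was not tested.

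**Figure D4:**
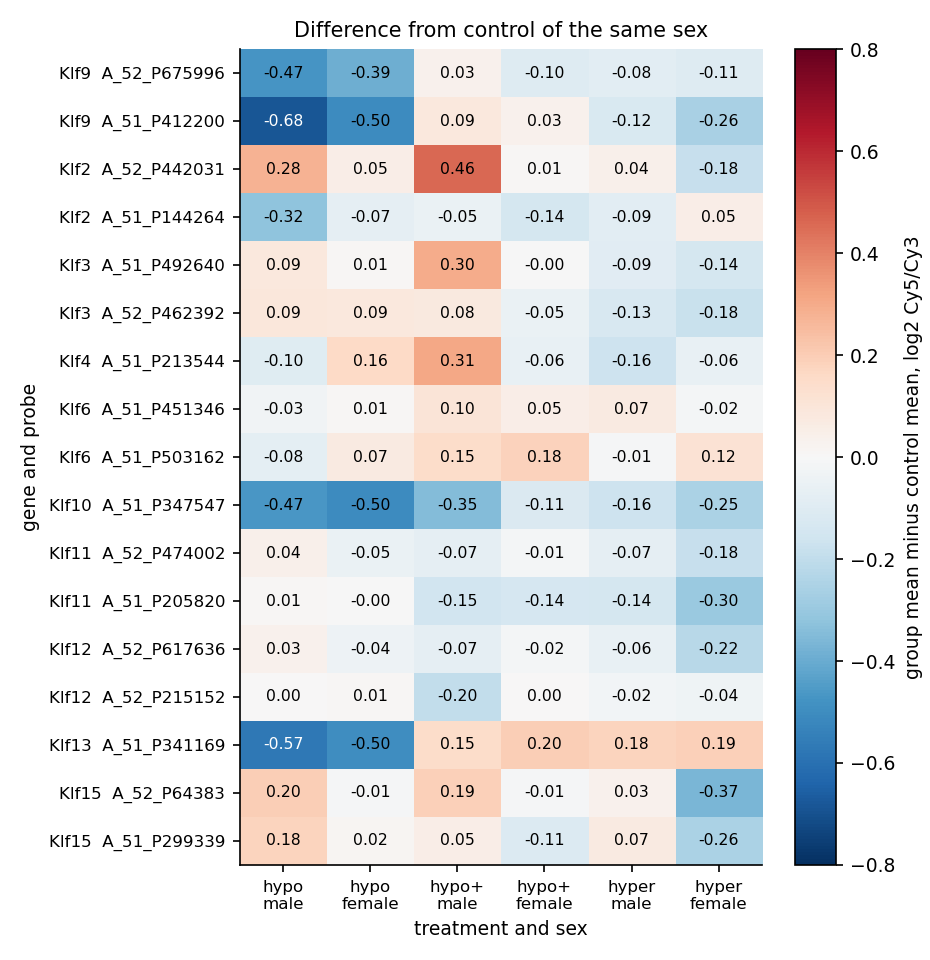
Difference between the mean of each treatment and the control mean of the same sex, in log2 Cy5/Cy3, for the 17 probes (rows) in males and females (columns). The Klf9, Klf10 and Klf13 rows are between -0.68 and -0.39 in the hypo columns, and the Klf13 row is between 0.15 and 0.20 in the hypo+ and hyper columns. Without control male 522 the Klf9 values of hypo males were -0.25 and -0.31 in place of -0.47 and -0.68.

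Probes of the same gene can be compared over the 34 arrays after centring each sex. Pearson's r, given as a description, was 0.78 for Klf9 and 0.78 for Klf15, 0.56 for Klf3, 0.36 for Klf6, 0.22 for Klf11, 0.17 for Klf12 and -0.24 for Klf2. The Klf9 and Klf15 probes thus varied together, although single pups changed rank between them. For Klf2, Klf6, Klf11 and Klf12 a value depends on the probe.

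**Figure D5:**
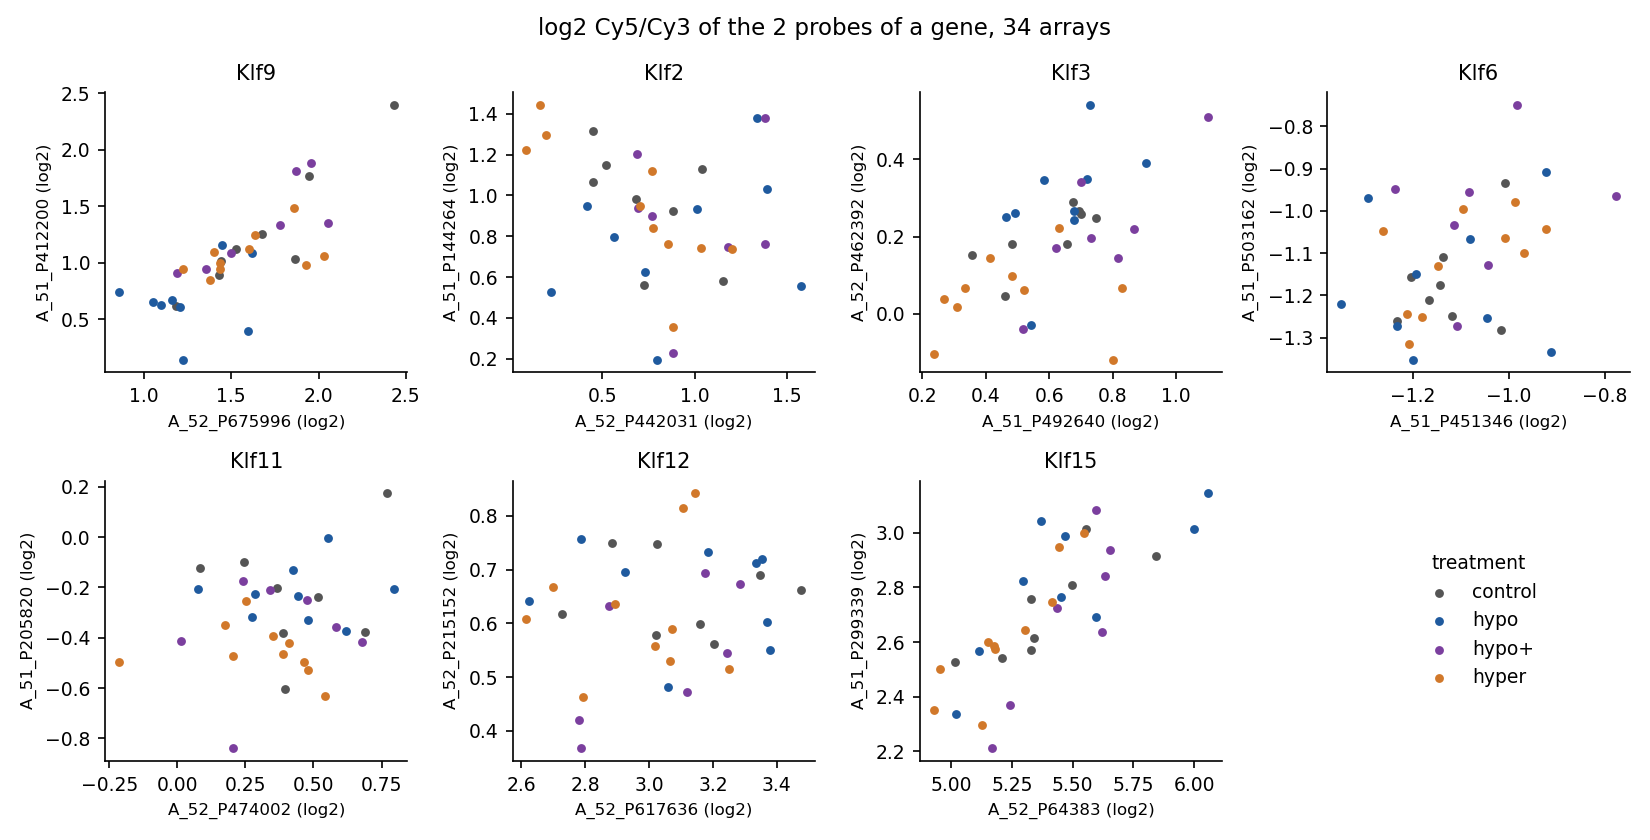
Log2 Cy5/Cy3 of the brighter probe (x axis) and the dimmer probe (y axis) of the 7 genes with 2 probes, 1 point per pup, coloured by treatment. The points follow a line for Klf9 and Klf15 (r = 0.78 each) and scatter for Klf2 (r = -0.24).

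Few probes of relatives and partners of the family were called. Of 16 other KLF and SP genes, 14 were on the array with 17 probes, and the only call in both sexes was Klf16, a repressor of the Klf9 and Klf13 group, which was lower in hypo+ than in hypo pups (log2 fold-change -0.30, SE 0.06, adjusted p = 0.00582), where 3.07% of all probes were called. In hypo vs control the 17 probes ranged from -0.65 to 0.25 and none passed. Of 10 cofactor genes, which include Sin3a, Ctbp1 and Ep300, 9 were on the array and none of 14 probes was called in any comparison of both sexes. The same held for the 22 probes of 15 immediate-early genes. Among 12 glucocorticoid-responsive genes, 10 were measured with 14 probes. Mt1 and Mt2, which encode metallothioneins, were lower in hyper than in control pups (-1.03, adjusted p = 0.0352, and -1.59, adjusted p = 0.0258, background 0.848%), and 1 of the Fkbp5 probes was lower in hypo+ than in hypo pups (-0.68, adjusted p = 0.0226, background 3.07%). Among 19 probes of 12 clock output genes, Dbp (0.51, adjusted p = 0.00962) and Hlf (0.50, adjusted p = 0.00693) were higher in hypo+ than in hypo pups, with the same background, and no other was called. Of 22 probes for 14 thyroid hormone responsive liver genes, a list chosen with results of these samples known, 9 were called lower in hypo pups (background 1.09%) and 9 higher in hyper pups (0.848%) against control, 6 higher in hypo+ pups against control (0.746%) and 14 higher in hypo+ than in hypo pups (3.07%). Their median log2 fold-change was -0.30, 0.29, 0.18 and 0.44 in these comparisons.

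The probes most like the brighter Klf9 probe over the 34 arrays, centred within sex, were those of Chac1 (r = 0.77), Slc4a8 (r = 0.76), Foxo1 (r = 0.74), Cpsf4l (r = 0.73) and Slc45a3 (r = 0.72), out of 17902 named probes above background on all arrays. Probes of KLF and SP genes were left out of this search, and the other Klf9 probe had r = 0.78. The arrays share the reference RNA and the treatments, so that r is a description only. Without control male 522, the r values lay between 0.70 and 0.71. Chac1 encodes an enzyme of glutathione breakdown and Foxo1 a transcription factor of fasting metabolism.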

How the data were processed

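Pup liver RNA was labelled with Cy5 and a universal reference RNA with Cy3, without dye swap, on Agilent arrays. The authors deposited scanner files (Feature Extraction 10.1.1.1) with median intensities per spot, not background-subtracted, and the software's log10 ratio. They also deposited log2 ratios whose scale and direction are not stated in the table. These correlated at 0.99 or more with the values used here, and their column medians were -0.05 to -0.02. The study removed 4 arrays as outliers, which are not analysed here.

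Groups came from the labels. Control and marked spots (77 to 212 per array) were left out, signals were normalized by loess within arrays in limma 3.58.1 (R 4.3.3), and spots of a probe were averaged. Of 33541 systematic names, 16806 matched a symbol by RefSeq accession (GRCm38.p6). Each sex was fitted on its own with its 4 treatments, as in the study. A fit of all 34 arrays averaged each comparison over the sexes. Benjamini-Hochberg adjustment covered all 41174 probes, and a probe was called below 0.05. The number of arrays limits the precision. On simulated data for hyper vs control in males over 41174 probes, changes of 1 and of 2 log2 units were placed in a small part of the probes. Of these changes, 93% and 100% were recovered. In the same fit 16 probes without a change were called, a number to be set against the called probes and not against all probes. The simulated pups were drawn independently, and smaller changes, such as those seen in the family, were not simulated. The recovery of such smaller changes is therefore not known.

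Pups are separate animals, of 20 litters inferred from animal numbers, 14 of them with 2 pups. The antithyroid water was given to dams, so that littermates share their exposure. The main fit of both sexes does not take litters into account. The members, lists and tests were chosen with earlier results of these data known. Named are all member probes, the 5 probes most like Klf9, members of the lists that passed, and markers. Alternatives were normexp correction (offset 50), median centring, the authors' log2 values, the software's ratio, Cy5 alone, a filter on dim probes, marked spots kept, slide, scan batch or litter as a block, only the compared groups, and each array left out. Leaving out 3 control pups with acinar markers was chosen after seeing the data.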

Additional observations from a re-analysis of the deposited data

Results flagged for a closer look

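In 6 of the 119 sets of pups tested (7 groups of 4 or 5 pups for each of 17 probes), the highest or lowest pup lay far from the rest of its group. That is 5.04%, close to the 1 in 20 that chance gives, and the group of 3 hypo+ females was not tested.

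Klf9 gave 3 of these. Hypo female 575 was high for both probes, at 1.62 for the brighter and 1.09 for the dimmer, where the next hypo female had 1.21 and 0.67. Hypo male 576, of the same inferred litter, was the highest hypo male for the dimmer probe at 1.16. Hyper female 783 was high for the brighter probe at 1.93, with the next at 1.44, and was not apart for the dimmer probe at 0.98.

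Klf13 was -0.10 in hypo male 576, with the next hypo male at -0.31, and this pup was still below every pup of the other treatments. Klf15 (A_51_P299339) was 2.81 in control male 522, with the next control male at 2.57. Klf6 (A_51_P503162) was -1.13 in hypo+ male 761, with the next at -0.97.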

How the results depend on the processing

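Of 272 results (17 probes in 16 comparisons), recomputed under 13 alternatives, none that was called changed its sign. Most results were not called in the main fit. The sign changed in 310 of 3400 values, none of them called in the main fit or under the alternative. A total of 13 values changed their side of the threshold, of which 8 lost a call and 5 gained one. All 13 concern Klf13, Klf9 and Klf10. No paired analysis was possible because each pup carries its own animal number and no replicate number is shared between treatments. Slide, scan batch and inferred litter were used as blocks instead.

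Median centring in place of loess ended every call of Klf13. The number of called members became 0 for hypo vs control and for hypo+ vs hypo, in females and in both sexes, with log2 fold-changes in both sexes of -0.52 (adjusted p = 0.545) and 0.57 (adjusted p = 0.232). With this setting 47 probes of the whole array were called in hypo vs control in both sexes, where 448 were with loess. The Cy5 channel alone gave 0 called members for hypo vs control in females and in both sexes (-0.42, adjusted p = 0.141) and 0 for hypo+ vs hypo in females, and kept Klf13 for hypo+ vs hypo in both sexes. With only the compared groups in the fit, 0 were called for hypo vs control in females (adjusted p = 0.0667). Otherwise counts went up. They became 2 for hypo+ vs hypo in both sexes without dim probes (Klf9, A_51_P412200, adjusted p = 0.0458) and 2 for hypo vs control in both sexes with slide as a random block or scan batch as a block (Klf10). Without the 3 control pups with acinar markers, 2 were called for hypo+ vs hypo in both sexes and 1 in males. The causes were not tested.

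With 1 array left out, the number called ranged from 1 to 3 for hypo vs control and from 1 to 2 for hypo+ vs hypo in both sexes, from 0 to 1 for hypo vs control in females and from 0 to 1 for hypo+ vs hypo in males. Klf13 was called in both sexes in 34 of 34 fits for each of these comparisons, with -0.59 to -0.45 and 0.63 to 0.75. Klf9 (A_51_P412200) passed in 7 of 34 fits for hypo+ vs hypo (adjusted p 0.0112 to 0.227) and in 1 of 34 for hypo vs control, that without control male 832. With the inferred litter as a random block Klf13 gave -0.53 (adjusted p = 0.0029) and 0.70 (adjusted p = 5.39e-05). All but 1 slide held a single sex.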

Other observations

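Females and males differed for 1 probe of the family when all treatments were averaged, a comparison chosen after the data were seen. Klf11 (A_52_P474002) was higher in females, with a mean log2 ratio of 0.52 against 0.24 in males (difference 0.28, SE 0.06, adjusted p = 0.0436), where 0.0996% of all probes passed. The other Klf11 probe differed by 0.01 (SE 0.06). Klf12 (A_52_P617636) was also higher in females, at 3.17 against 2.93 (difference 0.24, SE 0.07, unadjusted p = 0.00184), and did not pass after adjustment (adjusted p = 0.322). The other 15 probes had unadjusted p-values of 0.163 or more. The sexes were hybridized on different slides with 1 exception, so that slide and sex cannot be told apart.

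Litters were inferred from the animal numbers, and 14 of them had a male and a female on the arrays. In 1 control litter, male 522 and female 523 were each the highest of their group for Klf13, for Klf10 and for both Klf9 probes. The same held for Klf6 (A_51_P503162) and Klf15 (A_52_P64383). Male 522 was the highest control male for 11 of the 17 probes and female 523 the highest control female for 8. In 1 hypo+ litter, male 761 and female 763 were each the highest of their group for Klf13, at 0.94 and 0.52. Other inferred litters differed. In 1 hyper litter, female 861 was the highest hyper female for Klf13 at 0.52 and male 864 the lowest hyper male at 0.20. In 1 hypo litter, female 316 was the lowest hypo female at -0.44 and male 311 had -0.31, the second highest of the hypo males. Hypo female 721 was the highest of its group for 12 of the 17 probes.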
